A study of Drosophila melanogaster with 2 samples.

Results

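The chemosensory genes of Drosophila were the odorant receptors (Or), gustatory receptors (Gr), ionotropic receptors (Ir) and odorant-binding proteins (Obp), taken as every protein-coding gene whose symbol starts with Or, Gr, Ir or Obp followed by a digit. These were 230 of 13945 protein-coding genes on the chromosome arms: 59 Or, 60 Gr, 60 Ir and 51 Obp genes. The odorant co-receptor Orco and the binding protein lush carry other kinds of symbol and were not counted. The study mapped where Mad sits on the genome by chromatin immunoprecipitation and sequencing (ChIP-seq) in 2 biological replicates of 1 group. The animals were whole embryos of mixed sex, collected between 0 and 24 h of age, from 1 transgenic line (strain Mad-GFP) in which Mad carries GFP at its C terminus, and Mad was pulled down through the GFP. Chromatin was sheared by sonication to 200 to 800 bp. There was no second genotype, treatment or stage, so every comparison below is between gene families or with all genes in the same embryos, and no test between groups was possible. A whole embryo mixes all tissues and stages, and a site bound in few cells cannot be told apart from a site bound weakly in many.

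Mad is the transcription factor that carries signals of the BMP ligands, Dpp among them, into the nucleus of the fly cell. Odorant and gustatory receptors are membrane proteins of sensory neurons in the antenna, palp, mouthparts and legs, and most neurons express few of them. Odorant receptors work together with Orco, whereas ionotropic receptors derive from glutamate receptors and work with co-receptors such as Ir25a, Ir8a and Ir76b. Odorant-binding proteins are small proteins that support cells release into the fluid around sensory neurons, and several are made in other tissues.

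The thresholded list, the peaks the authors kept after comparing replicates, held 3590 peaks with signals from 70.5 to 1447 (median 106). Each signal is the authors' own enrichment value for a peak, without a stated unit, and serves here only to describe and rank peaks within a list. The pooled list of 30000 peaks was used for weaker binding: 25742 of its peaks overlapped no thresholded peak and had signals from 20.9 to 70.5. Each replicate list also held 30000 peaks, and since all 3 of these lists end at the same round number, a gene without a weaker peak may have had one below the end of the list. Sequence around the annotated start (500 bp to each side) was unique in the genome at 31 bases for a median of 100% of positions, and it fell under 90% only for the near-identical copies Or19a (17.7%) and Or19b (18.3%).

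Almost no chemosensory promoter carried a thresholded Mad-eGFP summit. A summit lay within 500 bp of a transcription start of 2 of the 230 genes (0.870%, 95% Wilson interval 0.239 to 3.11), against 19.7% of all protein-coding genes. The 2 genes were Obp99b, an odorant-binding protein, and Ir60e, an ionotropic receptor. None of the 59 Or genes (interval up to 6.11%) and none of the 60 Gr genes (up to 6.02%) had one. Within 5 kb of the gene's span a thresholded summit was present for 43 of 230 genes (18.7%, 14.2 to 24.2), against 45.8% of all genes. That share was 8.47% for Or (5 of 59, 3.67 to 18.4), 23.3% for Gr (14 of 60, 14.4 to 35.4), 18.3% for Ir (11 of 60, 10.6 to 29.9) and 25.5% for Obp (13 of 51, 15.5 to 38.9). The Or share was the lowest, but its interval overlapped those of the other families. The intervals cover counting error only and treat genes as independent, although neighbours share summits.

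**Figure D1:**
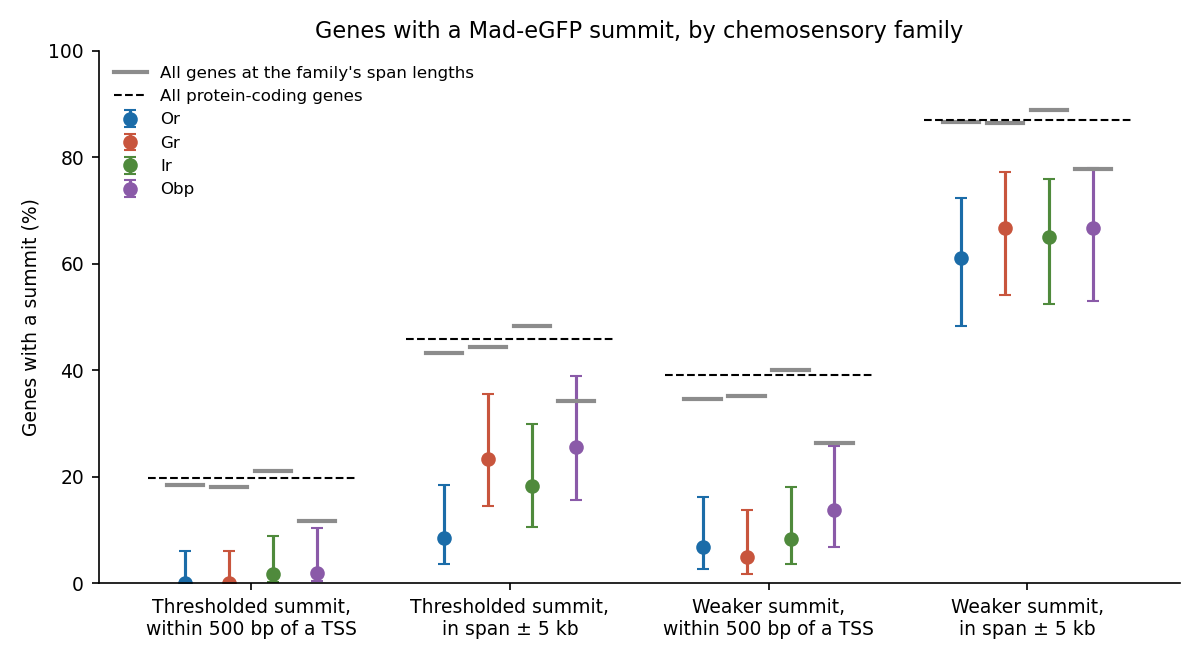
Share of genes (percent) with a Mad-eGFP summit under 4 rules, for each chemosensory family with its 95% Wilson interval, with the dashed line for all protein-coding genes and the grey bars for all genes weighted to that family's span lengths. The family points lie below the dashed line under all 4 rules, and the Obp interval reaches its grey bar for both kinds of summit in the extended span (25.5% against 34.2% for thresholded and 66.7% against 77.9% for weaker summits).

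Chemosensory genes are short, with a median span of 1498.5 bp against 2166 bp for all genes, so the background was also weighted to their span lengths. It was then 17.5% at promoters and 42.8% in the extended span. For the Obp genes, whose spans are the shortest (median 788 bp), the weighted background was 34.2%, inside the interval of their share. No thresholded summit lay inside the span of any of the 230 genes (an interval up to 1.64%), against 10.1% of all genes and 4.64% of all genes at these lengths. For single families this count of 0 does not separate Or, Gr and Obp genes from the weighted background, since their intervals reach 6.11%, 6.02% and 7.00% against 4.19%, 4.74% and 2.36%.

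The annotation of gene starts differed between families and bears on the promoter counts. The annotated start was the first coding base, with no leader sequence, for 137 of 230 members (59.6%) and for 3.69% of all genes. This held for 49 of 60 Ir, 43 of 59 Or and 38 of 60 Gr genes but only 7 of 51 Obp genes. All genes with such a start were 514, and these include the 137 members. A promoter summit was present for 1.75% of the 514 and for 0.730% of the 137 (1 gene, Ir60e). Among genes with an annotated leader the shares were 1.14% of 88 members (1 gene, Obp99b) and 20.1% of 13170 genes. For the extended span, which depends less on the exact start, the shares were 19.0% of the 137 members and 25.7% of the 514 genes, and 18.2% of the 88 members and 46.3% of the 13170 genes. The other 5 members have an annotated start after the first coding base of another transcript of the gene. This split was made after the promoter counts were seen.

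Only 4 of the 49 distinct thresholded summits in the extended spans were closer to a chemosensory start than to that of any other protein-coding gene. Their sequences are shown for that reason, and starts of non-coding genes were not considered. By gene, 4 of 230 members (1.74%) had a summit in the extended span nearest to their own start, against 18.9% of all genes. Obp99b had a summit 243 bp upstream of its start with a signal of 163, listed at 74.2 in replicate 1 and 86.7 in replicate 2. The gustatory receptor Gr89a, found in many bitter-sensing neurons, had one 1375 bp downstream of its start, past the end of the gene, at 135 (61.1 and 75.2 in the replicates). Gr93a, which takes part in caffeine sensing, had one 4125 bp upstream at 108 (41.9 and 65.2). Gr93d shared with Gr93c a summit 2428 bp upstream of its start at 92.4 (42.6 and 51.6). All 4 summits were intergenic and had the higher signal in replicate 2. They were listed in both replicates, as were 3585 of all 3590 thresholded peaks, which were kept after comparing replicates. The 201 bases centred on each summit are printed 5′ to 3′ on the strand of the gene, from the release 6 genome of RefSeq (dm6), with capitals for matches to GATGGCGC, the core of the motif of the insulator protein CTCF.
Obp99b, chr3R:29717039-29717239, minus strand: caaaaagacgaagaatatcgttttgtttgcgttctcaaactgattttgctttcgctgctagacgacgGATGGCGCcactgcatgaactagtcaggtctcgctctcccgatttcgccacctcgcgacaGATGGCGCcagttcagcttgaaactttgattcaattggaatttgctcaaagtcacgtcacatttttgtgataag
Gr89a, chr3R:16497484-16497684, minus strand: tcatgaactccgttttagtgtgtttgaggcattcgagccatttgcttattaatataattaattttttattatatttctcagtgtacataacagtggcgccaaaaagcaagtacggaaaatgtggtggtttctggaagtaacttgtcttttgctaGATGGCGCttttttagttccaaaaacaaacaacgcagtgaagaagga
Gr93a, chr3R:21828278-21828478, plus strand: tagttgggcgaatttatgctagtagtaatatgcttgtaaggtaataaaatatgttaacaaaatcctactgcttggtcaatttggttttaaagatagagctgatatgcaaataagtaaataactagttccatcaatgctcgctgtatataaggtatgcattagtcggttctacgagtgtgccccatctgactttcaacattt
Gr93d, chr3R:21848987-21849187, minus strand: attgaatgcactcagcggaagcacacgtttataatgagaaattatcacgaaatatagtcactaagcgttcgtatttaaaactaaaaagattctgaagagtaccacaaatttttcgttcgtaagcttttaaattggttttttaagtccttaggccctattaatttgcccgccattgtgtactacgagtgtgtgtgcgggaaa
GATGGCGC was searched on both strands after these sequences had been read, so its count is a description. The Obp99b summit held it in 2 places and the Gr89a summit once, while the summits at Gr93a and Gr93d did not hold it. It was present at 3 of the 49 summits (6.12%) and at 1.89% of all 3590 thresholded summits in windows of the same length. The third was the summit at Ogdh, a mitochondrial dehydrogenase gene near Obp73a. GCCGNCG, a sequence of the kind Mad binds, was in none of the 49 windows and in 4.76% of all thresholded summits.

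The other 45 summits were nearest to the start of a gene outside the 4 families, and 36 of the 49 (73.5%) lay within 500 bp of such a start. Promoters were common in the whole list too, where 58.2% of the summits lay within 500 bp of a protein-coding start. The median signal over the 49 was 113, with a range from 75.0 to 643. By position, 28 were intergenic, 13 were in non-coding exon sequence, 7 in introns and 1 in a coding exon. For 30 of the 43 genes every summit lay at the promoter of an unrelated gene. The plot of signal against position shows the strongest summits at neighbours on either side of the chemosensory gene.

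**Figure D2:**
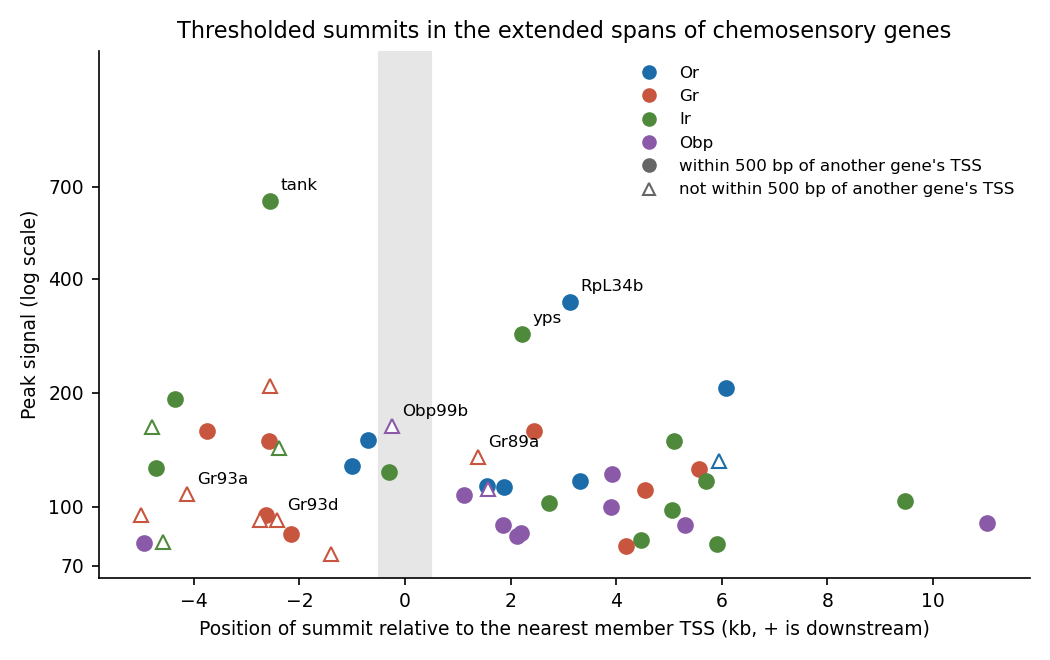
Signal (log scale) of the 49 thresholded summits against their position relative to the nearest start of a chemosensory gene (kb, positive is downstream), coloured by family, with open triangles for summits that lie at no other gene's promoter and a grey band for 500 bp to each side. The 2 points in the band are Obp99b at 163 and the summit at 123 that also lies 26 bp upstream of CG13585, and the highest points carry the name of the neighbouring gene.

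Among odorant receptors, 5 genes had a thresholded summit in the extended span, each nearest to another gene. Or85f had 4, the most of any member. The strongest, at 348, lay 82 bp upstream of RpL34b, a ribosomal protein gene. The other 3 lay at CG9356 (206), CG8132 (117) and CG34117 (113), and the RpL34b and CG8132 summits fall in 1 peak of each replicate list (167 and 179). Or88a, a receptor for fly-derived odours, had a summit at 151 that was 709 bp upstream of its start and 415 bp upstream of CG12402. It was listed at 55.0 in replicate 1 and 91.9 in replicate 2. Or9a had one at 129 by Neb-cGP and Or46a one at 113 by CG18011, and these 2 were higher in replicate 1 (64.0 against 56.7, and 60.3 against 47.4). Or45b, expressed in the larval olfactory organ, had a summit at 132 (63.0 and 71.7), nearest to Alp6 but 3917 bp from its start. It was the only one of 25 larval odorant receptors with a thresholded summit in the extended span. The share was 8.47% over all Or genes and 45.8% over all genes. The median distance to the nearest summit was 36.0 kb for those 25 and 34.8 kb for all Or genes.

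Gustatory receptors held 15 of the summits in 14 genes. Of 9 sugar receptors, 5 had one, 3 of them through the same summit, which is near the 45.8% of all genes. Gr5a, the trehalose receptor, had a pair by Tre1, a G protein-coupled receptor gene that guides germ cells. These lay 1099 bp upstream and 754 bp downstream of different annotated starts of Tre1. The first was at 208 (98.0 and 111 in the replicates). The second was the weakest of the 49, at 75.0, and was listed at 15.2 in replicate 1 and 58.1 in replicate 2, the largest ratio between replicates of any summit here. Gr61a, a glucose receptor, had one at 158 by CG13901 (79.6 and 82.1). Gr64d, Gr64e and Gr64f, the last of which serves as a co-receptor for several sugars, shared a single summit at 111 by CG11593 (43.5 and 65.5). The other 4 sugar receptors were farther from a summit: Gr64a at 9.79 kb, Gr64c at 10.1 kb, Gr64b at 11.6 kb and the fructose receptor Gr43a at 73.6 kb.

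The carbon dioxide receptor is made of Gr21a and Gr63a, and the pair differed in surroundings. Gr63a had summits at Ccz1, a gene of vesicle traffic (149, with 58.8 and 88.1 in the replicates), and at Fie (79.1, with 43.8 and 32.2). Gr21a was 38.6 kb from the nearest one. Of 5 widely expressed bitter receptors, Gr89a and Gr66a had a thresholded summit in the extended span, against 45.8% of all genes. The one for Gr66a, a receptor needed for caffeine sensing, lay 205 bp upstream of BI-1, a cell death regulator, at 84.9 (38.8 and 45.0). Gr94a, nested inside p53, had 3: at the p53 promoter (159, with 75.2 and 81.6) and near CG17121 (95.4 and 92.4). Gr59f had one by wmd at 126 (43.7 and 81.1) and Gr47b one by CG12384 at 95.2 (50.7 and 40.6).

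Ionotropic receptors held the strongest summit near any chemosensory gene. Ir25a, the most widely used IR co-receptor, had a summit 2561 bp upstream of its start and 138 bp downstream of the start of tank. Its signal was 643, rank 24 of 3590, with 278 in replicate 1 and 362 in replicate 2. The other co-receptors had none within 5 kb: Ir8a was 7.11 kb and Ir76b 109 kb from the nearest. Of 17 antennal ionotropic receptors 4 had one, against 45.8% of all genes. Besides Ir25a these were Ir93a, a partner of Ir25a in humidity and temperature sensing, with 104 at RpS30 (45.1 and 57.1), Ir31a with 102 at Ip259 and RpS27A (50.7 and 61.6), and Ir76a, an amine receptor, with 163 and 80.8, at 561 and 760 bp downstream of the start of SREBP. The SREBP summits fall in 1 peak of each replicate list (65.8 and 97.5). RpS30 and RpS27A are ribosomal protein genes and SREBP encodes a regulator of lipid synthesis.

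Ir60e counted at its promoter through a summit at 123 (59.0 and 59.7 in the replicates). That summit was 296 bp upstream of Ir60e but 26 bp upstream of CG13585, which is the nearer start. Ir60e had another at 149 by the DNA repair gene Brca2 (77.4 and 72.6). Ir68b had 286 at yps, which encodes an RNA-binding protein (119 and 169), and 126 at DEF8. Ir54a had 192 at PIG-A, a gene of GPI anchor synthesis (93.8 and 99.7). Ir48c, nested in the FGF gene ths, had 143 inside that gene, 1505 bp from its nearest start (67.1 and 80.7). Ir51b, nested in row, had 117 and 80.1, both at the row promoter and both in 1 peak of each replicate list (46.7 and 74.9). Ir52d had 98.2 at Pgant1 and Ir100a 81.9 at CG1971.

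Odorant-binding protein genes held 11 of the summits in 13 genes, with a median signal of 90.6 against 106 for the whole thresholded list. The median of the 8 Or summits was 130, and 4 of those 8 belong to Or85f. Obp99d shared the Obp99b summit at a distance of 2634 bp. Apart from that summit the strongest was at 122 for Obp99a, by the condensin gene Cap-D2 (57.8 and 63.6 in the replicates). Obp56e and Obp56f shared one at 111, 900 bp downstream of the start of CG8517 (48.5 and 63.6). Obp28a, an abundant antennal binding protein, had 108 by Ziz (53.3 and 55.2). Obp93a had 83.9 by CG5793, with 34.0 in replicate 1 and 62.9 in replicate 2. The remaining 6 genes had 1 summit each, at signals from 80.1 to 99.7, at the promoter of another gene: Obp19d by the phosphatase gene Pp4-19C, Obp73a by Ogdh, Obp22a by Got2, Obp84a by CG1227, Obp46a by RNaseZ and Obp47b by CG7745.

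All 49 summits were covered by a peak in both replicate lists, as were 3585 of the 3590 thresholded peaks. Of the 49, 41 had the higher signal in replicate 2. Counting summits that share a peak of each replicate list once, this was 38 of 46. The median log2 ratio of replicate 2 to replicate 1 was 0.28 (SD 0.40 over 49 summits). Over the 3585 thresholded peaks with both values it was also 0.28 (SD 0.46), so the chemosensory summits followed the offset of the whole list.

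**Figure D3:**
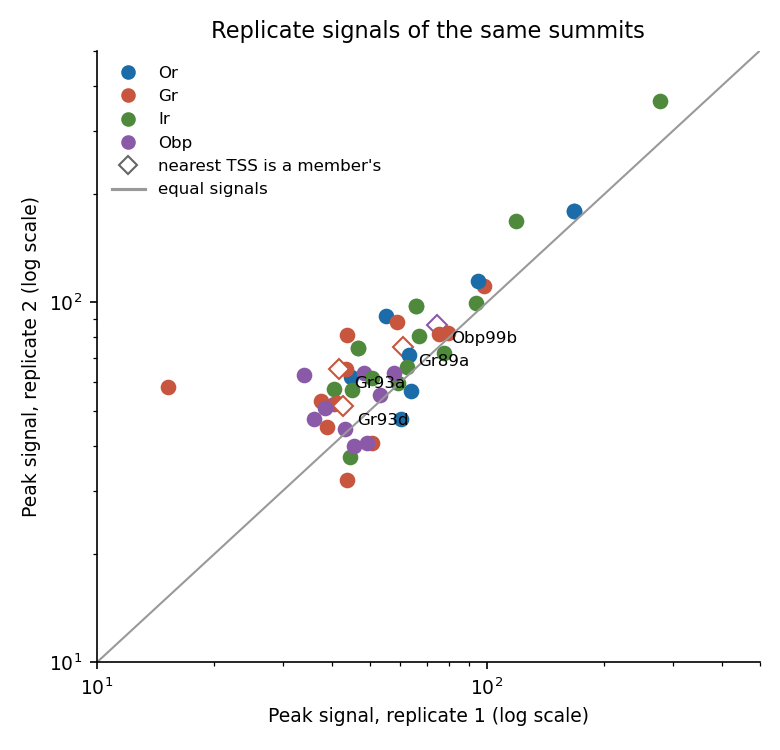
Signal in replicate 2 against replicate 1 (both log scale) at the 49 thresholded summits, coloured by family, with open diamonds where the nearest start is a chemosensory gene and a line for equal signals. Most points, 41 of 49, lie above the line, and the point far to the left is the weaker Gr5a summit at 15.2 and 58.1.

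Odorant receptor genes had the largest median distance to a thresholded summit among the 4 families. The median distance from a gene's start to the nearest thresholded summit was 34.8 kb for Or, 15.2 kb for Gr, 16.9 kb for Ir and 15.6 kb for Obp genes, against 7.96 kb for all genes. The quartiles overlapped, at 13.9 to 62.0 kb for Or, 5.92 to 53.5 for Gr, 8.30 to 42.9 for Ir and 6.09 to 21.3 for Obp. The Or median stayed between 34.8 and 36.0 kb when either replicate was left out. The Obp median was 8.26 kb without replicate 2, where the strongest peaks of replicate 1 alone were used, so its place among the families rests on that replicate. A distance over 50 kb was found for 19 of 59 Or genes (32.2%), 55 of all 230 members (23.9%) and 11.0% of all genes. The farthest members were Ir41a (205 kb), Or42a (181 kb) and Or42b (176 kb). Neighbours such as Or42a and Or42b have the same nearest summit, so their distances are not independent.

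**Figure D4:**
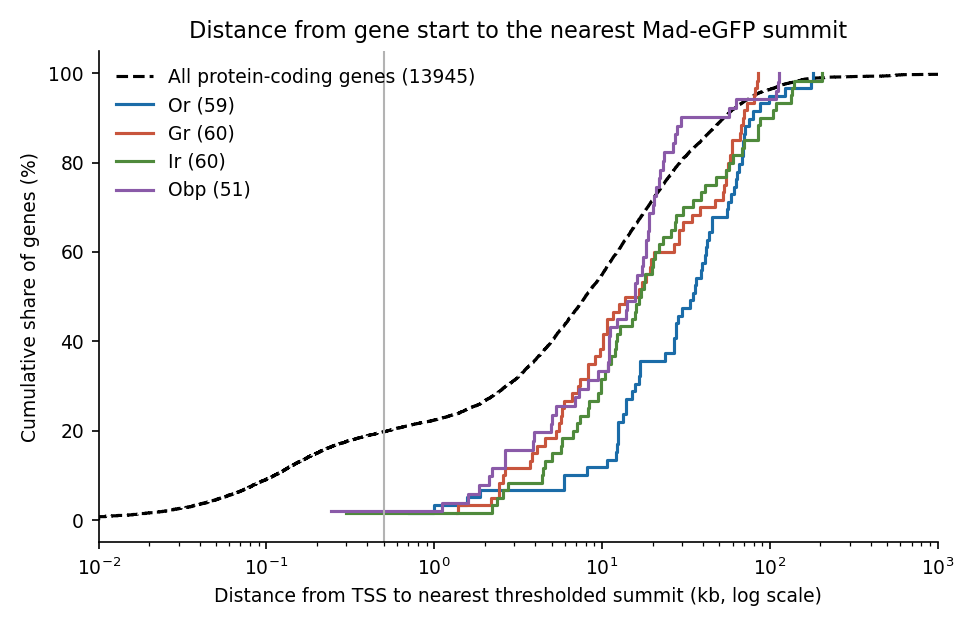
Cumulative share of genes (percent) by distance from the annotated start to the nearest thresholded summit (kb, log scale) for the 4 families and all protein-coding genes, with a vertical line at 500 bp. The Or curve lies to the right of the other families over most of the range, with a median of 34.8 kb against 7.96 kb for all genes.

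The number of neighbouring genes differed between chemosensory and other genes. Members had a median of 1 gene of another kind with a start in the extended span, against 3 for all genes. Of the 83 members with no such neighbour 3 had a thresholded summit (3.61%), namely Gr93a, Gr93c and Gr93d, against 16.1% of all genes without a neighbour outside the families. With 1 or 2 neighbours the shares were 20 of 91 (22.0%) and 37.4%, and with 3 or more they were 20 of 56 (35.7%) and 56.6%. Over all members the share was below that of all genes in each of these classes, but the families differed and their classes are small. With 1 or 2 neighbours 8 of 10 Obp genes had a summit (80%), above the share of all genes, and with 3 or more it was 5 of 22 (22.7%). With 3 or more neighbours 6 of 9 Ir genes had one (66.7%), also above all genes, against 7 of 14 Gr and 2 of 11 Or genes. Single genes had a thresholded summit in 31 of 120 cases (25.8%), genes in pairs at most 5 kb apart in 5 of 34 (14.7%) and genes in clusters of 3 or more in 7 of 76 (9.21%). Counted by cluster, 3 of 17 pairs and 4 of 21 larger clusters had a summit. The share of all genes was 45.8%, and clusters of other genes were not counted. By chromosome arm the counts were 4 of 33 on 2L, 13 of 75 on 2R, 9 of 37 on 3L, 14 of 54 on 3R and 3 of 31 on X. The share of all genes was between 43.7% (X) and 47.2% (3R) on these arms.

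Weaker summits were also scarce at chemosensory promoters. A summit of the pooled list outside the thresholded peaks lay within 500 bp of the start of 19 of 230 genes (8.26%, 5.35 to 12.5), against 39.2% of all genes and 34.3% at the members' span lengths. The counts were 4 Or, 3 Gr, 5 Ir and 7 Obp genes. They rest on annotated starts, which fall on the first coding base for 59.6% of members and 3.69% of all genes. Weaker summits were not split by the kind of start. In the extended spans 149 of 230 genes (64.8%) had a weaker summit, against 87.1% of all genes. The 21 weaker promoter summits had a median signal of 25.5, against 33.5 for weaker promoter summits of all genes. Of the 21, 8 were covered by a peak in both replicate lists. By gene, 7 of 230 members (3.04%) had a weaker promoter summit covered in both lists, against 26.5% of all genes.

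Of the 3 strongest of these weaker summits, 2 again had a nearer neighbour. The highest, at 66.4 and 274 bp upstream of Gr63a, lay 23 bp upstream of Lamtor4, a gene of the nutrient-sensing machinery, and was listed in replicate 2 alone (51.3). The summit at 53.5 by Ir60b, a receptor that limits sugar intake, was nearer to Letm1 (25.5 and 22.2 in the replicates). Obp83g had 59.8 in the pooled list with no nearer protein-coding neighbour, listed in replicate 1 alone (44.1), and Obp83cd had 34.4 (12.2 and 18.6). Obp56i had 32.4 (14.4 and 15.1). Ir67c had 37.8, listed in replicate 2 alone (29.0), and the humidity receptor subunit Ir68a had 24.5, listed in replicate 1 alone (20.0). Gr66a had 30.5 at 45 bp upstream of its start, in replicate 2 alone (22.0), and Gr21a had 22.0. The highest Or values were 26.3 for Or22c, 26.2 for Or98b and 24.5 for Or67a, of which only the Or67a summit was in both replicate lists (14.4 and 16.5).

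**Figure D5:**
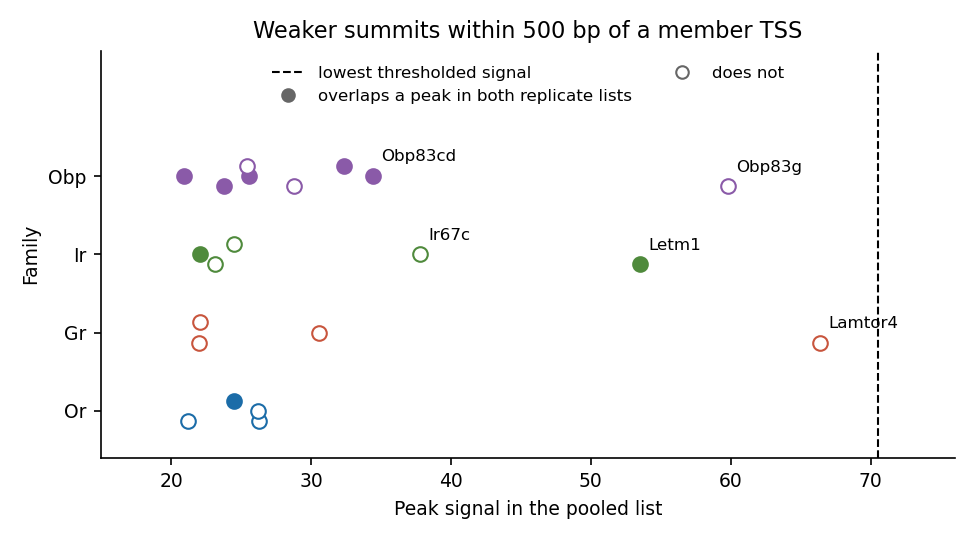
Pooled-list signal of the 21 weaker summits within 500 bp of a chemosensory start, by family, filled where a peak of each replicate list covers the summit and open where not, with a dashed line at the lowest thresholded signal (70.5). The summit at Lamtor4 (66.4) and those at Obp83g (59.8) and Letm1 (53.5) are the nearest to the line, and the Or summits lie between 21.2 and 26.3.

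In each family 1 member is shown by the 250 bases before its start (release 6 genome of RefSeq, dm6, on the strand of the gene). That member has the strongest weaker summit upstream of its start, where no other protein-coding start was nearer. The Gr promoter is left out because it overlaps an untranslated region of a neighbouring gene, BI-1. The summit is base 31 for Or98b, base 104 for Ir67c and base 48 for Obp83g. Capitals mark GCCGNCG.
Or98b, chr3R:28351992-28352241, plus strand: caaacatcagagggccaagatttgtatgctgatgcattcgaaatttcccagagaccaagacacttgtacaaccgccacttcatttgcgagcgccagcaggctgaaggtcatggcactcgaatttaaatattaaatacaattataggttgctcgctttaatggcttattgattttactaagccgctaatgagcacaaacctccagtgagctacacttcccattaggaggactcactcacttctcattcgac
Ir67c, chr3L:10434106-10434355, minus strand: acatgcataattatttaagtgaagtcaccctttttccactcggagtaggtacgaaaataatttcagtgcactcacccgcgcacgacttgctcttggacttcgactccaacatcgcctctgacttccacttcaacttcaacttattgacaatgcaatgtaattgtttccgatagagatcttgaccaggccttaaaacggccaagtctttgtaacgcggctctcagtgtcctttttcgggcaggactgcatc
Obp83g, chr3R:6112303-6112552, minus strand: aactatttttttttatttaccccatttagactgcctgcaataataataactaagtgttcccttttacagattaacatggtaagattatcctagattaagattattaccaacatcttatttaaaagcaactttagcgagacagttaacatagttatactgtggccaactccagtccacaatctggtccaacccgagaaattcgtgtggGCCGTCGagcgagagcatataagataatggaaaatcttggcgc
Over all members, GCCGNCG on either strand was in 11 of 230 promoters (4.78%, 2.69 to 8.36) between 250 bp before and 50 bp after the start, against 10.6% of all genes. These were 5 Obp genes (Obp22a, Obp58b, Obp83ef, Obp83g and Obp99c), 3 Ir, 2 Or and 1 Gr gene. TATCGATA, the motif of the promoter factor DREF, was in 1 member promoter, that of Gr68a (0.435%), against 8.94% of all genes. GGTCACACT, the motif of the promoter factor M1BP, was in none of the 230 and in 5.87% of all genes. GAGAGAG was in 0.870% against 6.20%, and CAGGTAG, the motif of Zelda, in 1.30% against 1.72%. The median GC content of the windows was 39.3% for members and 38% for all genes. The windows were placed on annotated starts, which fall on the first coding base for 59.6% of members and 3.69% of all genes. For such genes the window may miss the true promoter, and a background with the same kind of start was not taken. A match is a description of these letters, and no match says nothing about binding of the factor.

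TATAAA on either strand of the same window was more frequent in Or (78.0%) and Obp promoters (72.5%) than in all promoters (45.3%), and less frequent in Gr promoters (31.7%). On the strand of the gene between 40 and 21 bp before the start, where a TATA box lies, it was in 17 of 51 Obp promoters (33.3%), 3 of 59 Or, 1 of 60 Gr and none of 60 Ir promoters, against 6.76% of all genes. The 3 receptor families are the ones whose annotated starts mostly fall on the first coding base.

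DREF and M1BP motifs were present at a few summits by the neighbours' promoters. The DREF share was about that of the whole list, and the M1BP count is small. Among the 49 windows of 201 bases around thresholded summits, TATCGATA was in 3 and GGTCACACT in 3 (6.12% each), against 6.16% and 3.15% of all thresholded summits. The promoters of p53, which surrounds Gr94a, and RpS30, near Ir93a, are shown by the 150 bases before their starts, with TATCGATA in capitals, because the summits of these receptors lie there.
p53, chr3R:23054083-23054232, minus strand: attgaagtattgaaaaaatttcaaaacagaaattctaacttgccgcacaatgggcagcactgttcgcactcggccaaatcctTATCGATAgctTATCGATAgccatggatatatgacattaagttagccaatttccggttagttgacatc
RpS30, chr3R:20850366-20850515, plus strand: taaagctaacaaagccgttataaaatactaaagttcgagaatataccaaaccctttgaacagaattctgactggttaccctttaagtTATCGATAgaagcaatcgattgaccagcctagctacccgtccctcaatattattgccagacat
The p53 promoter held the motif in 2 places, and the summit 49 bp upstream of its start is base 102. The RpS30 summit is base 115.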

How the data were processed

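Mad-eGFP ChIP-seq peak lists of 2 biological replicates were used. The authors deposited, per the labels, peak lists for the dm6 build: 1 for each replicate, 1 for the pooled replicates and 1 thresholded for reproducibility. The labels name the replicate and pooled lists as peaks and background, the input for that thresholding. The signal column holds the authors' enrichment signal per peak. The summit offset is another deposited column, added to the peak start. The aligner, the peak caller and the read depth are details not given in the sources used here. Lists on the dm3 build were not used.

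Starts and spans came from Ensembl release 115, and sequence from the release 6 RefSeq genome. Summits were counted within 500 bp of any annotated start and within spans extended by 5 kb, with 95% Wilson intervals (Python 3.11.15, numpy 2.4.6, scipy 1.17.1). The counting functions were tested on simulated data. The background was every protein-coding gene, also weighted to the members' span-length deciles. Named were all members with a thresholded summit in the extended span, the nearest genes to those summits, the 3 members per family with the highest weaker promoter signal, and the members of short lists of sugar, carbon dioxide, bitter and co-receptor genes. Members, families and lists were chosen with earlier results of these data known. The GATGGCGC motif, the split by leader sequence, the check of unique sequence and the replicate alternatives for distances were added after the data were seen. Alternatives tried were other distances, peak bases in place of summits, stricter lists and single replicates.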

Additional observations from a re-analysis of the deposited data

How the results depend on the processing

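The share of all members was below that of all genes in all 20 settings that gave one. Of 147 alternatives, 87 stayed within the replicate or counting error of the reported value or within 1.5 times the count, and 60 moved; the cause of a move was not tested beyond what a wider or narrower rule does by construction. Thresholded promoter counts were 1 in all and 0 for Ir at 250 bp (Ir60e was lost), and 1 for Or at 1000 bp (Or88a); with 1 replicate left out they ran from 3 to 3 in all, from 0 to 1 for Gr (Gr63a) and from 1 to 2 for Obp (Obp83g). Extended-span counts, given as all, Or, Gr, Ir and Obp, were 11, 3, 1, 3 and 4 at 1 kb, 0 in each without extension, 4, 0, 3, 0 and 1 where the nearest start had to be the member's, and 13, 2, 4, 5 and 2 with the 1000 strongest peaks; at 10 kb they were 73 in all, 27 for Gr and 21 for Ir. Weaker promoter counts in that order were 11 in all, 1 for Gr, 2 for Ir and 4 for Obp at 250 bp, 36, 9, 8, 8 and 11 at 1000 bp, 7, 1, 0, 2 and 4 where both replicate lists had to cover the summit, and 6, 0, 1, 2 and 3 above the median signal of the pooled list (30.6); with 1 replicate left out they ran from 2 to 5 for Or and from 4 to 8 for Gr. Median distances with 1 replicate left out ran from 16.7 to 18.3 kb in all, 34.8 to 36.0 for Or, 12.1 to 16.2 for Gr, 16.9 to 17.5 for Ir and 8.26 to 16.2 for Obp. Moving the promoter window to 200 bp before and 100 bp after the start kept 29 of 35 motif shares inside their intervals. With 1 group and 2 replicates, and depth not given, absence from a list says only that no summit was listed there. No paired analysis was possible because there was only 1 group.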

Other observations

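Chemosensory genes that the symbol rule leaves out were described from a list of 14 partners, among them Orco, lush and Snmp1. None had a thresholded summit at its promoter, and 4 had one in the extended span, against 19.7% and 45.8% of all genes. Phk-3 had the strongest, at 255 by the ribosomal protein gene RpL19 (125 and 128 in the replicates). EbpIII had 2, the stronger at 108 by HSPC300 (56.5 and 46.3). CheA29a had 76.2 at 3644 bp upstream of its start, with no nearer protein-coding start (34.7 and 45.0). Snmp1, a membrane protein of pheromone sensing, had 74.4 by cDIP (40.6 and 32.9). Orco was 38.7 kb from the nearest summit, and lush was 6.23 kb from one with a signal of 613 by Lon.

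A list of 15 regulators of chemosensory neurons gave 9 genes with a thresholded summit in the extended span and 2 at the promoter. Xbp1 had 142 at 87 bp upstream of its start (73.8 and 71.2). E2f2 had a summit 71 bp upstream of its start at 82.3, nearer to Mpp6. The backgrounds of all genes are 45.8% and 19.7%.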
